A study of Homo sapiens with 22 samples.

Results

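N-MYC and WDR5 chromatin binding was examined at 57 DNA repair genes, out of 20149 protein-coding genes in the annotation. The 57 genes were given as a list, all of them were found in the annotation, and a gene was scored as having a peak in a library when the summit of a listed peak lay within 1 kb of any of its transcription start sites (TSSs). The data are chromatin immunoprecipitation sequencing (ChIP-seq) peak lists from CHP-134 and IMR-32, established neuroblastoma cell lines with N-MYC amplification. CHP-134 cells had been treated for 4 h with DMSO, the solvent, or with a compound, with 3 libraries per antibody in each condition, and IMR-32 cells were untreated, with 2 libraries per antibody. The sample labels name the compound in more than one way, so it is not identified here, and they give the DMSO content as 0.0005% in one field and 0.005% in another. Each library pooled 3 ChIP reactions. The study's methods describe the experiments as independent repeats, the labels do not say which libraries came from separate cultures, and p-values measure only the spread between these libraries. Line, DMSO, sequencer and read type (single reads for CHP-134, paired end reads for IMR-32) cannot be told apart. Of 22 samples, the 6 with IgG were not analysed here, and 16 peak lists remained.

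N-MYC is a basic helix-loop-helix transcription factor that binds E-box sequences together with MAX, at promoters and enhancers. WDR5 is a core subunit of the MLL/SET complexes, which methylate a lysine on the tail of histone H3, and it also contacts MYC proteins directly. DNA repair genes encode enzymes and signalling proteins that mend breaks, crosslinks, mismatches and damaged bases, and rapidly dividing tumour cells depend on several of these pathways to complete replication.

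The sequences below show the E-box CACGTG, in capitals, at the members with the strongest N-MYC peaks or with cobound peaks, because the N-MYC signal at these genes is described against them later. Each is 30 bases of the plus strand of GRCh37 (hg19) read 5′ to 3′, with its coordinates and the place of the box relative to the canonical TSS.
APEX1 at chr14:20923268-20923297, upstream: aagcgtctccgtCACGTGgtgtcagacaga
APEX1 at chr14:20923329-20923358, upstream: cgcgcctctgatCACGTGaccaggtccgct
APEX1 at chr14:20923350-20923379, upstream: aggtccgctaccCACGTGggggctcagcgt
LIG3 at chr17:33307447-33307476, upstream: gcaactacgaccCACGTGgcagacgggggc
RAD50 at chr5:131892656-131892685, over the TSS itself: ggcctagaggccCACGTGatccgcagggcg
PMS2 at chr7:6049109-6049138, upstream: ccgggcgctggcCACGTGcaggtaggagcg
UNG at chr12:109535733-109535762, intron 1: ccaaatagcctcCACGTGttcaaaatagcc
FANCC at chr9:98079959-98079988, 5′ UTR in exon 1: cgcgcgcgcgcaCACGTGtcagcagtgcat
MRE11 at chr11:94226543-94226572, intron 1: taaataaacaaaCACGTGgtctgcggagga
BRCA2 at chr13:32889585-32889614, upstream: gcgtcacggcgtCACGTGgccagcgcgggc
RAD51D at chr17:33446661-33446690, 5′ UTR in exon 1: gggactgcacgtCACGTGggcattcgcggg
APEX1 carried 3 boxes within 100 bp of its N-MYC summit in CHP-134, at 73, 12 and 8 bp. The other members printed here had 1.

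Most DNA repair genes had an N-MYC peak in CHP-134 DMSO cells, and fewer had a WDR5 peak. A gene was said to have a consensus peak when at least 2 libraries of a group each listed a peak at it. These peaks did not have to overlap or lie at the same TSS. A gene was cobound when overlapping N-MYC peaks of at least 2 libraries formed a region that overlapped such a WDR5 region by at least 1 bp. N-MYC consensus peaks lay at 42 of the 57 genes (73.7%) in CHP-134 DMSO cells, against 36.8% of all protein-coding genes. WDR5 consensus peaks lay at 18 (31.6%), against 8.06% of all genes, and 15 genes (26.3%) were cobound, against 6.82%. In IMR-32, 18 genes (31.6%) had an N-MYC consensus peak, against 14.9% of all genes. WDR5 consensus peaks lay at 7 (12.3%), against 4.6%, and 3 (5.26%) were cobound, against 2.19%. The 3 genes with no peak in any of the 16 lists were RAD51B, LIG1 and ERCC2, whereas 46.8% of all genes had none. At the other end, RAD50, XRCC6, LIG3, PMS2, DDB1, UNG, APEX1 and PARP1 were listed for N-MYC in each of the 8 libraries with that antibody, as were 7.31% of all genes. These shares are descriptions of a list that was chosen with earlier results of these data known, and no test over the list was made.

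Library by library, the share of DNA repair genes with a peak was higher than the share of all genes in 15 of the 16 lists. In the N-MYC lists 12 to 47 of the 57 genes had a peak, which was 1.89 to 2.28 times the share of all genes. In the WDR5 lists the lowest count was 0, in compound replicate 2, whose list held 15 peaks. The other WDR5 lists had a peak at 2 to 31 of the genes, 1.89 to 3.47 times the share of all genes. The lists held 2964 to 15286 N-MYC peaks and 15 to 5973 WDR5 peaks, and the longer an N-MYC list was, the more of the genes it held, with 44 in each of 3 lists. WDR5 DMSO replicate 1, with 4891 peaks against 1758 and 1671 in the other replicates, decided much of the WDR5 count. Without it 6 genes kept a WDR5 consensus peak, against 4.02% of all genes, and 4 were cobound, against 3.5%. Without replicate 2 the counts were 11 and 9, against 5.4% and 4.67%. Without replicate 3 they were 11 and 10, against 6.18% and 5.26%. Lists were also reduced to an equal number of their strongest peaks (2964 for N-MYC, and 401 for WDR5 except compound replicate 2, which held 15). N-MYC consensus peaks then lay at 11 genes in CHP-134 DMSO cells, against 10.5% of all genes, and at 9 in IMR-32, against 7.29%. WDR5 consensus peaks lay at 1 gene, against 1.73%, and at 2, against 1.61%. Cobound genes numbered 0 in both lines, against 0.789% and 0.546%. In CHP-134 DMSO cells the higher WDR5 and cobound shares were thus not kept at this list length.

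**Figure D1:**
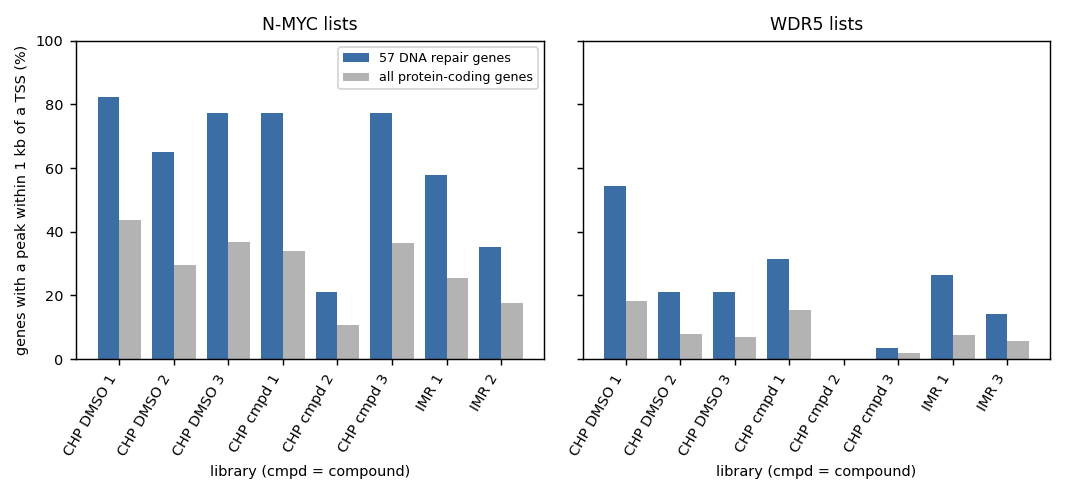
Share of genes with a peak within 1 kb of a TSS (y axis, %) in each library (x axis), for N-MYC lists on the left and WDR5 lists on the right. Blue bars are the 57 DNA repair genes and grey bars all 20149 protein-coding genes, with no error bars because each bar is 1 library. The blue bar is the taller in 15 of 16 libraries, and compound WDR5 replicate 2 has no DNA repair gene.

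To compare genes within a list, the authors' fold (peak signal over the local background) was expressed as a percentile of all peaks in that list, with values near 100% for the strongest. A percentile depends on the other peaks in its list, so values from lists of different length or antibody are not on a common scale. DNA repair genes that had a peak did not stand consistently higher in the lists than other genes with a peak. Their median N-MYC percentile ran from 53.0 to 70.6 over the 8 libraries, and that of all genes from 50.8 to 59.3. Their median WDR5 percentile ran from 34.0 to 54.0 over the 7 libraries that listed any, and was below that of all genes in each of those 7. Values below are percentiles of this kind unless stated otherwise, in the order of the replicate numbers, and a gene without a value in a library had no listed peak there, which does not show that the protein was absent.

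**Figure D2:**
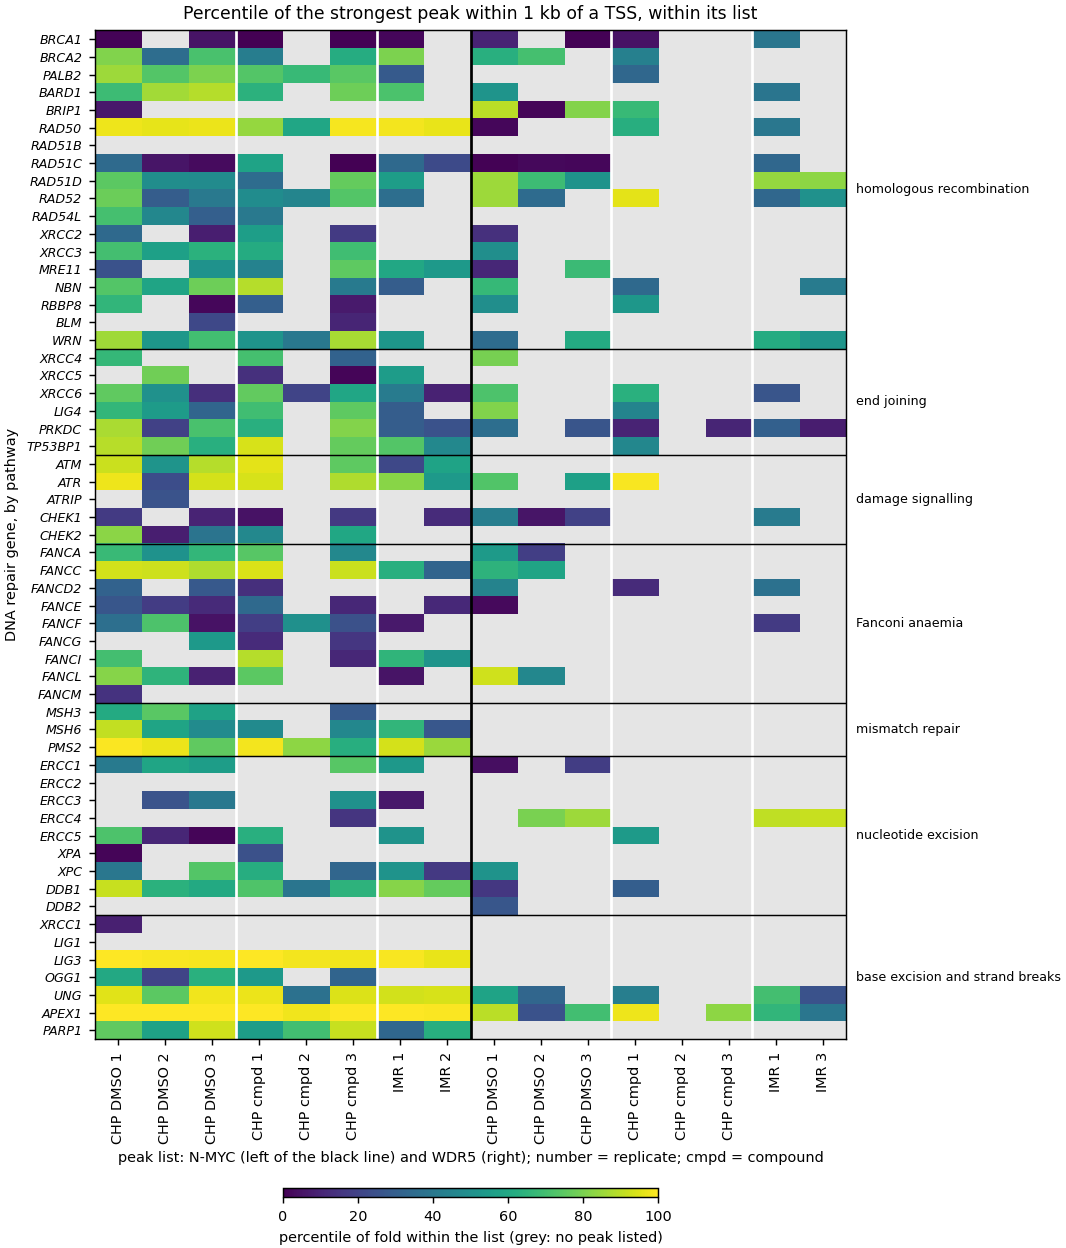
Percentile of fold (colour, 0 to 100) of the strongest peak at each of the 57 DNA repair genes (rows, by pathway) in each of the 16 peak lists (columns, N-MYC left of the black line and WDR5 right). Grey marks no listed peak. APEX1 and LIG3 stand at 96.5 or above in all 8 N-MYC lists, LIG3 has no WDR5 peak, and the compound WDR5 lists are almost empty except for replicate 1.

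Homologous recombination copies an intact sister sequence to mend a broken chromosome. Of its 18 genes, 15 had an N-MYC consensus peak in CHP-134 DMSO cells, 8 had a WDR5 consensus peak and 6 were cobound. In IMR-32, 3 had an N-MYC consensus peak (RAD50, MRE11, RAD51C) and 3 a WDR5 consensus peak (RAD51D, RAD52, WRN), with no gene in both sets. RAD50, which with MRE11 and NBN forms the complex that first recognises broken ends, had N-MYC percentiles of 97.5, 96.4 and 97.2 in CHP-134 DMSO cells and 98.3 and 96.6 in IMR-32. MRE11, the nuclease of that complex, ranked lower, at 25.4 and 51.1 in DMSO replicates 1 and 3 and 59.9 and 54.2 in IMR-32. NBN, its other partner, stood at 73.1, 58.3 and 78.0 in CHP-134 DMSO cells and at 29.6 in IMR-32 replicate 1. The N-MYC ranks of the 3 subunits of this complex therefore differed, with RAD50 above the others in every DMSO and IMR-32 library. Only MRE11 of the 3 was cobound in CHP-134, with WDR5 percentiles of 11 and 68.3 in replicates 1 and 3.

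BRCA1 and its partners also differed in rank. BRCA1 itself, a ubiquitin ligase that directs break repair towards recombination, had N-MYC percentiles of only 1.13 and 5.40 in DMSO replicates 1 and 3, and the strongest peak in replicate 3 was 44046 bp upstream of the canonical TSS, within 1 kb of another annotated start site. Its WDR5 percentiles were 10.1 and 0.718 in replicates 1 and 3, it was not cobound by the overlap rule, and the more significant WDR5 summit was nearer to the start of NBR2, a long noncoding RNA gene. BRCA2, a mediator of recombination, was cobound, with N-MYC percentiles of 81.0, 35.7 and 71.1 and WDR5 percentiles of 63.2 and 70.6 in replicates 1 and 2. PALB2, which bridges BRCA1 and BRCA2, had N-MYC percentiles of 85.5, 73.1 and 80.5 and no WDR5 peak under DMSO. BARD1, the obligate partner of BRCA1, stood at 68.4, 85.9 and 89.0 for N-MYC. BRIP1, a helicase that binds BRCA1, was the reverse case, with WDR5 percentiles of 89.8, 1.42 and 81.6 and N-MYC listed only in replicate 1, at 6.97. Peaks at PALB2 and BARD1 were thus of middle to high N-MYC rank in all 3 DMSO libraries, and BRIP1 was a gene with WDR5 and without an N-MYC consensus peak.

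RAD51B, RAD51C, RAD51D, XRCC2 and XRCC3 are related proteins that assist strand exchange. RAD51D had N-MYC percentiles of 74.6, 49.0 and 48.3 and WDR5 percentiles of 85.5, 68.4 and 51.3 in CHP-134 DMSO cells. RAD51C was also cobound in CHP-134 and stood near the bottom of the lists, with N-MYC percentiles of 34.5, 5.61 and 2.79 and WDR5 percentiles of 0.511, 1.96 and 1.62. XRCC2 (34.1 and 8.51 in replicates 1 and 3) and XRCC3 (70.0, 56.7 and 63.8) had N-MYC consensus peaks in CHP-134 and no N-MYC peak in IMR-32, and RAD51B had no peak at all. RAD51D was therefore the gene of these 5 with the highest WDR5 rank, and no WDR5 peak at it was listed in any compound library.

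Among the remaining recombination genes, RAD52, a strand-annealing protein, had N-MYC percentiles of 77.5, 29.7 and 40.5 and WDR5 percentiles of 85.4 and 35.2 in DMSO replicates 1 and 2. The strongest peak of RAD52 in each library lay within 1 kb of an annotated upstream start site, with the most significant N-MYC summit 41237 bp from the canonical TSS, where the start of another gene (ENSG00000250132, given without a symbol) was nearer. RAD54L, a motor protein that assists strand invasion, had N-MYC percentiles of 70.6, 46.2 and 30.4, and RBBP8, which starts end resection, had 65.9 and 1.80 in replicates 1 and 3. Both lacked an N-MYC peak in IMR-32. Of the RecQ helicases, WRN was cobound in CHP-134 (N-MYC 85.6, 52.9 and 69.8, WDR5 35.3 and 61.0 in replicates 1 and 3), and BLM was listed in 1 DMSO N-MYC library, at 21.7.

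End joining ligates broken ends directly. N-MYC consensus peaks lay at XRCC6, LIG4, PRKDC and TP53BP1, 4 of its 6 genes, in CHP-134 DMSO cells, and at 3 of them (all but LIG4) in IMR-32. PRKDC, the catalytic subunit of the DNA-dependent protein kinase, was the gene of this group that was cobound in both lines. Its N-MYC percentiles were 87.4, 19.3 and 71.2 in CHP-134 DMSO cells and 29.6 and 25.1 in IMR-32. Its WDR5 percentiles were 36.3 and 26.5 in DMSO replicates 1 and 3, and 30.6 and 7.87 in IMR-32. PRKDC shares its promoter with MCM4, a subunit of the replicative helicase, whose start is 720 bp away. Its N-MYC summits lay 6, 76 and -679 bp from the nearest PRKDC start in the 3 DMSO libraries (negative upstream, towards MCM4) and -686 and 15 bp in the IMR-32 libraries, so both positions occurred in both lines. The WDR5 summits lay at -409 and -501 bp in DMSO replicates 1 and 3 and at -451 and -348 bp in IMR-32. Peaks between these starts cannot be assigned to 1 of the genes.

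XRCC6 and XRCC5 encode the Ku proteins that hold broken ends. XRCC6 had N-MYC percentiles of 75.5, 50.5 and 13.3 in CHP-134 DMSO cells and 41.5 and 9.41 in IMR-32, and XRCC5 was listed in DMSO replicate 2 alone, at 78.4. LIG4, the ligase of the pathway, stood at 66.2, 54.9 and 32.5 (at an annotated start site 2765 bp upstream of the canonical one), and XRCC4, its cofactor, at 66.7 in replicate 1 alone. The highest mean WDR5 percentiles over the DMSO libraries that listed a peak belonged to ERCC4, LIG4, XRCC4, XRCC6 and FANCL. For LIG4 (80.9), XRCC4 (79.3) and XRCC6 (72.1) that was replicate 1 alone, so none of these 3 had a WDR5 consensus peak. TP53BP1, which shields ends from resection, had N-MYC percentiles of 89.3, 78.5 and 63.2 in CHP-134 DMSO cells and no WDR5 peak there. Its most significant N-MYC summit was 17685 bp upstream of the canonical TSS, at another start site of the gene and nearer to the start of MAP1A.

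Damage signalling kinases had N-MYC consensus peaks at ATM, ATR, CHEK1 and CHEK2, 4 of 5 genes, in CHP-134 DMSO cells, and at ATM and ATR in IMR-32. ATR, the kinase that responds to stalled replication forks, had N-MYC percentiles of 97.4, 23.5 and 93.5 and WDR5 percentiles of 72.8 and 56.7 in replicates 1 and 3. Its N-MYC percentiles in IMR-32 were 82.2 and 54.2, with no WDR5 peak there. ATM, the kinase that responds to broken ends, had 92.0, 51.9 and 88.7 for N-MYC and no WDR5 peak in any library. DMSO replicate 2 was thus the lowest of the 3 at both kinases. CHEK1, the kinase downstream of ATR, was cobound at low rank, with N-MYC percentiles of 17.0 and 10.1 in replicates 1 and 3 and WDR5 percentiles of 42.9, 5.60 and 19.2. CHEK2, downstream of ATM, had N-MYC percentiles of 82.8, 8.31 and 38.6, and ATRIP, the partner of ATR, was listed in replicate 2 alone, at 25.5.

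The Fanconi anaemia proteins unhook crosslinks between DNA strands. N-MYC consensus peaks lay at 6 of 9 genes in CHP-134 DMSO cells, and FANCA, FANCC and FANCL were cobound. FANCC, a core complex subunit, had the highest N-MYC ranks of the group, at 93.3, 92.4 and 88.1, with WDR5 at 64.8 and 58.6 in replicates 1 and 2. FANCA, another core subunit, had N-MYC percentiles of 67.7, 50.9 and 66.3 and WDR5 percentiles of 54.7 and 18.5 in replicates 1 and 2. FANCL, the ubiquitin ligase of the complex, had N-MYC percentiles of 81.8, 65.1 and 8.996 and WDR5 percentiles of 92.7 and 46.4 in replicates 1 and 2. All 3 thus lacked a WDR5 peak in DMSO replicate 3, and none of them had a WDR5 peak in IMR-32.

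FANCD2 and FANCI form the clamp that the core complex modifies, and their N-MYC peaks differed. FANCD2 was listed in DMSO replicates 1 and 3, at 31.3 and 28.03, and in no IMR-32 library. FANCI was listed in DMSO replicate 1 alone, at 70.0, and in both IMR-32 libraries, at 65.3 and 51.7. FANCE (26.8, 17.9 and 11.9) and FANCF (36.5, 72.1 and 4.83) had N-MYC consensus peaks of low to middle rank. FANCG and FANCM were each listed in 1 DMSO library, at 53.6 in replicate 3 and 14.8 in replicate 1.

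All 3 mismatch repair genes on the list had an N-MYC consensus peak in CHP-134 DMSO cells, and none had a WDR5 peak in any library. PMS2, an endonuclease of the pathway, had N-MYC percentiles of 99.5, 97.0 and 75.6 in CHP-134 DMSO cells and 93.5 and 84.8 in IMR-32. Its summits lay upstream and nearer to the start of AIMP2, a divergent gene 133 bp away, than to that of PMS2. MSH6, which recognises mismatched bases, had N-MYC percentiles of 90.9, 58.3 and 48.3 in CHP-134 and 65.8 and 27.0 in IMR-32. MSH3, its counterpart for larger loops, had 61.3, 74.4 and 57.5 and was not listed in IMR-32.

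Nucleotide excision repair cuts out bulky lesions, and N-MYC consensus peaks lay at 5 of its 9 genes (ERCC1, ERCC3, ERCC5, XPC and DDB1) in CHP-134 DMSO cells. ERCC4, a nuclease subunit, stood apart in having WDR5 without N-MYC. Its WDR5 percentiles were 79.9 and 85.5 in DMSO replicates 2 and 3 and 90.6 and 91.7 in IMR-32, and it had no N-MYC peak under DMSO or in IMR-32. Those were the highest mean WDR5 percentiles among the 57 genes in CHP-134 DMSO cells and in both IMR-32 libraries, and the summits lay 343 and 408 bp upstream of its nearest TSS. ERCC1, the partner of ERCC4, was cobound in CHP-134, with N-MYC percentiles of 40.8, 58.6 and 55.8 and WDR5 percentiles of 3.86 and 18.3 in replicates 1 and 3. The partners of this nuclease thus differed, with WDR5 high at ERCC4 and low at ERCC1, and N-MYC at ERCC1 alone under DMSO.

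DDB1, which helps find lesions in chromatin, had N-MYC percentiles of 91.8, 63.9 and 60.7 in CHP-134 DMSO cells and 81.7 and 76.3 in IMR-32. XPC, a lesion sensor, was listed at 39.8 and 73.4 in DMSO replicates 1 and 3 and at 51.3 and 16.7 in IMR-32. The helicase ERCC3 (25.7 and 39.9 in replicates 2 and 3) and the nuclease ERCC5 (72.2, 10.9 and 1.33) had weaker or more variable N-MYC peaks. XPA, which verifies the lesion, was listed in DMSO N-MYC replicate 1 alone, at 1.47, and DDB2 in DMSO WDR5 replicate 1 alone, at 26.9.

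Base excision and strand break repair held the strongest N-MYC peaks of the 57 genes. APEX1, which cuts DNA at sites that have lost a base, had N-MYC percentiles of 99.94, 99.7 and 99.8 in CHP-134 DMSO cells and 99.7 and 99.5 in IMR-32. LIG3, a ligase that seals nicks, had 99.97, 99.2 and 98.6 in CHP-134 and 98.9 and 96.5 in IMR-32, with no WDR5 peak in any library. UNG, which removes uracil from DNA, had 95.7, 74.7 and 98.0 in CHP-134 and 93.0 and 93.8 in IMR-32. These 3 genes stood in the upper part of the N-MYC list in both lines.

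WDR5 percentiles at APEX1 and UNG were lower than their N-MYC percentiles, though the WDR5 lists were shorter and the scales are not common. At APEX1 the WDR5 percentiles were 89.8, 25.1 and 69.7 in CHP-134 DMSO cells and 65.9 and 39.2 in IMR-32. At UNG they were 58.1 and 32.9 in DMSO replicates 1 and 2 and 70.3 and 25.2 in IMR-32. PARP1, the sensor of nicked DNA, had N-MYC percentiles of 75.5, 57.5 and 92.9 in CHP-134 and 33.3 and 62.8 in IMR-32, and OGG1, which removes oxidised guanine, 60.3, 20.5 and 63.5 in CHP-134. XRCC1, the scaffold protein of the pathway, was listed in DMSO N-MYC replicate 1 alone, at 8.93, and LIG1 had no peak.

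At the 15 genes cobound in CHP-134 DMSO cells, N-MYC and WDR5 summits lay a median of 159 bp apart, against 113 bp over the 1374 cobound genes, taking the most significant peak of each protein. The gap was 31 bp at CHEK1 and 40 bp at both APEX1 and RAD51D, and it reached 457 bp at PRKDC and 670 bp at BRCA2. In IMR-32 the summit gap was 2 bp at APEX1, 190 bp at UNG and 235 bp at PRKDC. Of the 42 genes with an N-MYC consensus peak in CHP-134 DMSO cells, 15 were cobound, whereas 18.5% of all genes with an N-MYC consensus peak were. In IMR-32, 3 of 18 were cobound, against 14.7% of all genes with an N-MYC consensus peak. BRIP1 and ERCC4 had a WDR5 consensus peak and no N-MYC consensus peak in CHP-134, and RAD51D, RAD52, WRN and ERCC4 did so in IMR-32.

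**Figure D3:**
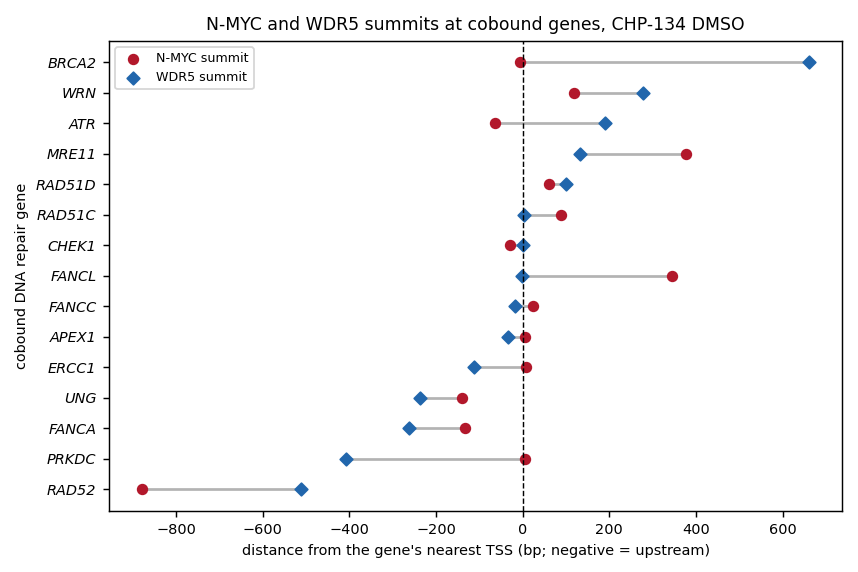
Distance of the N-MYC summit (red circles) and the WDR5 summit (blue diamonds) from the nearest TSS of the gene (x axis, bp, negative upstream) at the 15 DNA repair genes cobound in CHP-134 DMSO cells (y axis), with a grey line joining both summits of a gene. For each protein the summit of the most significant peak (by −log10 q-value) over the DMSO libraries is drawn, so no error is drawn. Summits of APEX1, FANCC and CHEK1 sit close to the TSS, and those of BRCA2, PRKDC and RAD52 lie far apart.

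Comparison of the lines showed N-MYC peaks at several genes in CHP-134 alone and at none in IMR-32 alone. N-MYC consensus peaks in CHP-134 DMSO cells with no peak in either IMR-32 library were found at 9 genes, against 12.8% of all genes. Among genes with an N-MYC consensus peak in CHP-134 DMSO cells, these were 9 of 42, against 2579 of 7414 over all genes. The 9 genes were RAD54L, XRCC2, XRCC3, CHEK2, RBBP8, FANCA, FANCD2, MSH3 and OGG1. The reverse was found at 0 genes, against 0.243% of all genes. For WDR5, 8 genes had a consensus peak in CHP-134 DMSO cells and no peak in IMR-32, against 3.64% of all genes (BRCA2, BRIP1, ATR, MRE11, FANCA, FANCC, FANCL and ERCC1), and 0 genes the reverse, against 0.546%. Among genes with a WDR5 consensus peak in CHP-134 DMSO cells, the 8 were of 18, against 733 of 1624 over all genes. FANCA was the gene found in CHP-134 alone for both proteins. The IMR-32 N-MYC lists, with 8286 and 5242 peaks, were shorter than the CHP-134 DMSO lists. The part of list length in these counts was not tested beyond the lists of equal length. With those, 2 genes had N-MYC in CHP-134 alone and 1 in IMR-32 alone, against 2.54% and 0.873% of all genes.

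Of the 42 genes with an N-MYC consensus peak in CHP-134 DMSO cells, 17 also had one in IMR-32, against 38.5% of all such genes. Of the 18 with a WDR5 consensus peak in CHP-134, the 7 shared with IMR-32 were RAD51D, RAD52, PRKDC, WRN, ERCC4, UNG and APEX1, against 40.8% of all such genes. Cobound in both lines were PRKDC, UNG and APEX1, against 1.67% of all genes. Several of these counts moved when a library was left out, and for IMR-32, with 2 libraries per antibody, this also relaxed the rule from 2 libraries to the 1 that was left. Without IMR-32 N-MYC replicate 2, 33 genes had N-MYC in IMR-32 and 6 were cobound, against 25.4% and 2.92% of all genes. Without IMR-32 N-MYC replicate 1, 23 genes had N-MYC in CHP-134 alone, against 20.6%. Without IMR-32 WDR5 replicate 3, 15 genes had WDR5 in IMR-32, 6 were cobound and 1 had WDR5 in IMR-32 alone. The shares of all genes were then 7.58%, 3.33% and 1.84%. Without WDR5 DMSO replicates 1, 2 or 3, the genes with WDR5 in CHP-134 alone were 1, 4 and 5, against 1.1%, 1.98% and 2.44%. Without N-MYC DMSO replicate 1, FANCI alone had N-MYC in IMR-32 alone, against 0.581% of all genes.

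Whether ranks differed between the lines was tested with limma on the percent rank of fold among the protein-coding genes with a peak in every library fitted, with Benjamini-Hochberg adjustment over all genes fitted and a threshold of 0.05. For N-MYC, 2582 genes were fitted, 15 of them DNA repair genes, and 0 were called (0% of genes fitted), while 352 had an unadjusted p under 0.05. FANCC had the lowest p among the DNA repair genes, with a mean rank of 71.0% in CHP-134 and 26.3% in IMR-32, a difference of -44.7 ± 10.6 (SE) and an adjusted p of 0.22 by limma. Its percentiles of 93.3, 92.4 and 88.1 in CHP-134 and 62.9 and 32.4 in IMR-32 did not overlap. Such percentiles did not overlap at 825 of the 2582 genes fitted and at 1 of the 15 DNA repair genes. On the fitted ranks the counts were 784 and 4. Over the genes fitted, the median difference of IMR-32 from CHP-134 was -6.68 on the percentiles and 0.308 on the fitted ranks. For APEX1 the difference in N-MYC rank was -0.219 ± 9.04 (SE) and for RAD50 it was 6.05 ± 9.05 (SE), neither of them called.

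For WDR5, 495 genes were fitted, 2 of them DNA repair genes, and 26 were called (5.25% of genes fitted). RAD51D was called, with a mean rank of 27.8% in CHP-134 DMSO cells and 56.0% in IMR-32, a difference of 28.1 ± 5.34 (SE) and an adjusted p of 0.0427 by limma, higher in both IMR-32 libraries than in all 3 CHP-134 libraries. Ranks of the lines did not overlap at 205 of the 495 genes fitted. The RAD51D call was lost without any 1 of the 5 libraries in turn. It was also lost with the percentile within the whole list, on which the values overlapped (85.5, 68.4 and 51.3 in CHP-134, 84.3 and 82.9 in IMR-32). APEX1 was not called, with a difference of -10.8 ± 9.40 (SE) and an adjusted p of 0.562 by limma.

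Under the compound, N-MYC peaks remained at most of the DNA repair genes in replicates 1 and 3. N-MYC consensus peaks lay at 39 genes, against 29.1% of all genes. Of the 42 genes with an N-MYC consensus peak under DMSO, 39 had a peak in compound replicate 1, 12 in replicate 2 and 38 in replicate 3, against 80.9%, 28.7% and 86.7% of all such genes. Replicate 2, with 2964 peaks, therefore listed far fewer genes than the other 2. Without replicate 1 or replicate 3 the consensus count fell to 12, against 10.4% and 10.3% of all genes. The 12 genes kept by replicate 2 included APEX1 (98.0), LIG3 (98.1), PMS2 (82.9) and RAD50 (59.0).

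Consensus N-MYC peaks under DMSO and not under the compound were found at 7 genes, against 9.04% of all genes, and the reverse at 4, against 1.34%. Among genes with an N-MYC consensus peak under DMSO, the 7 were of 42, against 1821 of 7414 over all genes. Of the 7, RAD54L was listed in compound replicate 1 at 40.3, FANCD2 at 13.6, FANCL at 74.8 and ERCC5 at 63.2, and MSH3 was listed in compound replicate 3 at 28.2, ERCC1 at 74.1 and ERCC3 at 50.6. Each of these 7 thus kept a peak in 1 compound library. The 4 genes with a consensus under the compound alone were XRCC4 (70.5 and 31.4 in replicates 1 and 3), XRCC5 (13.96 and 1.36), FANCG (12.4 and 15.9) and FANCI (88.9 and 11.1). Each of the 4 was also listed in 1 DMSO library, so none of the 11 differed between conditions by more than 2 libraries.

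The N-MYC ranks of the strongest genes overlapped between the conditions. APEX1 had percentiles of 99.97, 98.0 and 99.9 under the compound, LIG3 99.9, 98.1 and 97.9, and UNG 97.2, 37.1 and 94.8. RAD50 had 84.0, 59.0 and 98.7, against 97.5, 96.4 and 97.2 under DMSO. Compound replicate 2 held 2964 peaks, against 9125 to 15286 under DMSO. The part of list length in these percentiles was not tested. FANCC had 94.3 and 91.8 in replicates 1 and 3 and no peak in replicate 2. The limma fit of N-MYC ranks compared the groups without pairing libraries by replicate number. In it 2011 genes were fitted, 12 of them DNA repair genes, and 0 were called (0% of genes fitted), with 21 at an unadjusted p under 0.05 and none of these a DNA repair gene. The differences at the 12 ran from -17.5 ± 12.4 (SE) at RAD50 to 16.4 ± 11.2 (SE) at RAD52. The 2 groups overlapped at all 12, and they did not overlap at 73 of the 2011 genes fitted. Over the genes fitted, the median difference from DMSO was 0.149 on these ranks and -9.98 on the percentiles within the whole list. With a replicate block in the limma fit, 0 genes were again called. Of the genes, 117 then had an unadjusted p under 0.05, with 0 DNA repair genes among them.

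WDR5 peaks were listed at few DNA repair genes under the compound. Of the 18 genes with a WDR5 consensus peak under DMSO, 8 had a peak in compound replicate 1, 0 in replicate 2 and 2 in replicate 3, against 52.5%, 1.11% and 15.3% of all such genes. The lists differed in length, with 5973, 15 and 401 peaks. With the 401 strongest peaks of each list (all 15 in compound replicate 2), WDR5 consensus peaks lay at 1 gene under DMSO and 1 under the compound. The shares of all genes were then 1.73% and 0.432%. WDR5 consensus peaks remained at PRKDC and APEX1, against 1.27% of all genes, and both were cobound, against 1.04%. APEX1 had WDR5 percentiles of 97.3 and 83.0 in compound replicates 1 and 3 and PRKDC 10.1 and 10.47. The count of 2 was 0 without WDR5 compound replicate 1 or 3, against 0.0844% and 0.0943% of all genes. Without N-MYC compound replicate 1 or 3, 1 gene was cobound, against 0.63% and 0.615%.

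In compound replicate 1, the longest of the WDR5 lists, the 8 genes ranged widely in rank. APEX1 had a WDR5 percentile of 97.3, ATR 99.2, RAD52 96.0 and BRIP1 67.3, above the median of 49.8 over all genes with a peak in that list. BRCA2 (43.7), UNG (42.9), PRKDC (10.1) and BRCA1 (4.70) were below it. RAD51D, MRE11, WRN, RAD51C, CHEK1, FANCA, FANCC, FANCL, ERCC1 and ERCC4 had a WDR5 consensus peak under DMSO and no WDR5 peak in any compound library. In the limma fit of WDR5 ranks without compound replicate 2, 138 genes were fitted and 38 were called (27.5% of genes fitted). APEX1, the DNA repair gene that could be fitted, had a mean rank of 33.0% under DMSO and 65.9% under the compound, a difference of 33.0 ± 11.3 (SE) and an adjusted p of 0.0742 by limma, and was not called.

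The E-box CACGTG, which reads the same on both strands, lay within 100 bp of the N-MYC summit at 12 of the 42 DNA repair genes with an N-MYC consensus peak in CHP-134 DMSO cells (28.6%). The share was 27.0% over all 7414 genes with such a peak, and 5.68% over windows of the same length at 19858 canonical TSSs. In IMR-32 the box was found at 7 of 18 genes (38.9%), against 41.8% of 3005. The variant CACGCG, searched on both strands, lay at 10 of 42 genes (23.8%) in CHP-134, against 28.8% of all genes with a peak and 10.8% of TSS windows. The DNA repair genes thus held these boxes at shares close to those of other genes with N-MYC peaks.

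The 12 genes with CACGTG were APEX1, BRCA2, FANCC, FANCD2, LIG3, MRE11, PMS2, RAD50, RAD51D, RAD54L, UNG and XRCC2, and the 5 with the highest N-MYC percentiles (APEX1, LIG3, RAD50, FANCC and PMS2) were all among them. In DMSO replicate 1 the median N-MYC percentile was 87.2 at the 12 genes with the box, from 25.4 to 99.97, and 72.2 at the 29 listed genes without it, from 1.13 to 97.4. In IMR-32 replicate 1 it was 93.5 at 7 genes and 51.3 at 11, and in IMR-32 replicate 2 it was 93.8 and 46.7. The medians stood higher with the box in all 5 libraries, while the ranges overlapped. Over all genes the medians were 80.8 and 60.3 in DMSO replicate 1, and 82.2 and 64.0 in IMR-32 replicate 1. Of the 12 genes with the box, 7 also had an N-MYC consensus peak in IMR-32 (58.3%, against 59.5% of all genes with the box), and of the 30 without it 10 did (33.3%, against 30.8%). A box is a match of letters and was not shown to be a binding site.

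**Figure D4:**
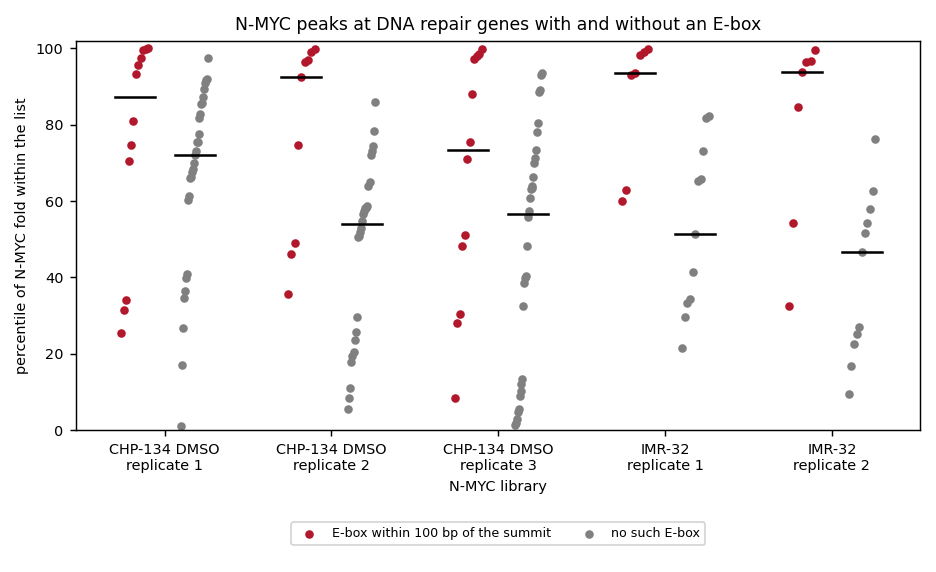
N-MYC percentile of fold within the list (y axis) at DNA repair genes with an N-MYC consensus peak, in the 3 CHP-134 DMSO and 2 IMR-32 libraries (x axis). Red points are genes with CACGTG within 100 bp of the summit, grey points genes without it, and black lines the medians. Red medians lie above grey ones in all 5 libraries, and in each library some red points lie below the highest grey ones.

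Many of the DNA repair genes share a promoter region with a divergent neighbour. A gene on the opposite strand started within 1 kb upstream at 31 of the 57 (54.4%), against 24.1% of all protein-coding genes, and at 23 (40.4%, against 12.7%) that neighbour was protein-coding. Among genes with an N-MYC consensus peak in CHP-134 DMSO cells the shares were 59.5% of the 42 and 38.1% of all. Examples are ATM with NPAT, a regulator of histone genes, 429 bp apart, and APEX1 with OSGEP 379 bp apart. At 6 of the 42 genes the N-MYC summit was nearer to the start of another gene than to that of the DNA repair gene (BARD1, ERCC3, PMS2, RAD52, TP53BP1 and XRCC6), and at 4 of 18 the WDR5 summit was (BRCA1, FANCL, PRKDC and RAD52). By the canonical transcript, N-MYC summits in CHP-134 lay upstream of the gene at 19 genes, in an exon of the 5′ UTR at 13, in an intron at 7 and in a coding part of an exon at 3. The median distance from an N-MYC summit to the nearest TSS was 88.5 bp, and 23 of 42 lay within 100 bp.

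A second list of 66 other DNA repair genes gave shares within a few percentage points of those of the 57 in CHP-134 DMSO cells, and higher ones in IMR-32. N-MYC consensus peaks lay at 50 of the 66 (75.8%) in CHP-134 DMSO cells, WDR5 consensus peaks at 20 (30.3%), and 17 (25.8%) were cobound. In IMR-32, 26 had an N-MYC consensus peak (39.4%, against 31.6% of the 57), 13 a WDR5 consensus peak (19.7%, against 12.3%) and 9 were cobound (13.6%, against 5.26%). Under the compound 40 had an N-MYC consensus peak (60.6%, against 68.4%) and 3 a WDR5 consensus peak (4.55%, against 3.51%). These differences between lists were not tested. Cobound in both lines were 5, namely EME1, a nuclease subunit, RAD9A, a subunit of a checkpoint clamp, GTF2H1, a subunit of the helicase complex of excision repair, TDG, which removes mispaired thymine, and USP1, which removes ubiquitin from FANCD2.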

How the data were processed

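Reads were trimmed (Cutadapt), mapped to hg19 (Bowtie2) and used by the authors for peak calling in each library (MACS2, q-value 0.05); versions and the control library are not given in the sources used here. The deposited lists give each peak's position and summit offset, its fold (a linear ratio over local background, by the authors), its p-value and q-value as −log10 values by the authors, and a deposited score, which was not used. Folds were compared only as ranks within a list. The lists hold no read counts, so depth is not known and intervals that need it were not computed. TSSs came from 56296 distinct starts of basic transcripts of protein-coding genes in GENCODE 44 mapped to GRCh37. Consensus peaks needed 2 libraries, after the rule the study gives for DiffBind, but were counted by gene, so peaks of different libraries did not have to overlap. Ranks were fitted with limma 3.58.1 in R 4.3.3, tested on simulated data. Same-numbered N-MYC DMSO and compound libraries deviated together (r = 0.641, 0.600 and 0.658 over 2011 genes, against -0.33 to -0.30 for different numbers), so the numbers pair these libraries. The main fits did not use this pairing, and the replicate block was an alternative. Compound WDR5 replicate 2 was left out of the WDR5 fit. Members and lists were chosen with earlier results of these data known. Genes named were those cobound in either line, those with peaks in 1 line or 1 condition, the 5 of highest mean percentile under DMSO for each antibody, those called in a fit and, by pathway, the rest. Alternatives tried were 500 bp, any part of the peak, a −log10 q-value of at least 5, equal list lengths, every library of a group, TSSs of all transcripts (added after the data were seen), other scales, a replicate block and leaving out each library.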

Additional observations from a re-analysis of the deposited data

How the results depend on the processing

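Counts of DNA repair genes depended most on list length and on the number of libraries required, and the cause of each change was not tested beyond the construction of the alternative (fewer peaks or more libraries). In the order CHP-134 DMSO, IMR-32 and compound, equal numbers of strongest peaks (compound WDR5 replicate 2 kept its 15) gave 11, 9 and 11 genes for N-MYC, 1, 2 and 1 for WDR5 and 0, 0 and 1 cobound. The shares of all genes were 10.5%, 7.29% and 9.89% for N-MYC, 1.73%, 1.61% and 0.432% for WDR5, and 0.789%, 0.546% and 0.263% cobound. In CHP-134 or IMR-32 alone, 2 and 1 genes had N-MYC, against 2.54% and 0.873% of all genes. For WDR5 these counts were 0 and 1, against 0.427% and 0.278%. A −log10 q-value of at least 5 gave 11 WDR5 and 9 cobound genes in CHP-134 DMSO cells, against 5.03% and 4.13% of all genes. Under the compound it gave 1 and 1, against 0.655% and 0.541%. In CHP-134 alone it gave 15 genes with N-MYC and 5 with WDR5, against 12.1% and 1.82%. A peak in every library gave 5 WDR5 and 3 cobound genes under DMSO, against 3.77% and 2.93% of all genes. Under the compound it gave 12 N-MYC, 0 WDR5 and 0 cobound genes, against 10.2%, 0.0844% and 0.0546%. It gave 1 gene with WDR5 in CHP-134 alone, against 0.938%. A limit of 500 bp gave 1 gene with N-MYC in IMR-32 alone, against 0.293% of all genes. The alternatives other than leaving out each library in turn gave 100 values, for counts, rank fits and the E-box search. The replicate block among them left out DMSO WDR5 replicate 2 in the WDR5 fits. In the N-MYC fit of the lines it left out DMSO N-MYC replicate 3. Of the 100 values, 72 stayed within 1.5 times the reported one. Values of 0 in both settings were taken as unchanged. For IMR-32 the rule of every library was the same as the rule of 2 libraries, so this share does not measure stability.

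Leaving out each library in turn, which for IMR-32 leaves 1 library and relaxes the rule to that 1, moved the N-MYC counts to 34 to 41 in CHP-134 DMSO cells, 20 to 33 in IMR-32 and 12 to 39 under the compound. The shares of all genes moved to 26.5% to 33.6%, 17.7% to 25.4% and 10.3% to 28.8%. The WDR5 counts moved to 6 to 11, 8 to 15 and 0 to 2, and the cobound counts to 4 to 15, 2 to 6 and 0 to 2. Shares of all genes were then 4.02% to 6.18%, 5.71% to 7.58% and 0.0844% to 1.26% for WDR5. For cobound genes they were 3.5% to 6.56%, 2.27% to 3.33% and 0.0744% to 1.03%. Genes in CHP-134 alone numbered 6 to 23 for N-MYC and 1 to 11 for WDR5, against 6.76% to 20.6% and 1.1% to 4.47% of all genes. Genes in IMR-32 alone numbered 0 to 1 for each, against 0.278% to 1.38% and 0.625% to 1.84%. The RAD51D call in the WDR5 comparison of the lines went from 1 to 0 without each library in turn (0 to 0) and with the percentile within the whole list (0). It was also 0 with the replicate block, which left out DMSO WDR5 replicate 2 as well. No DNA repair gene was called in the other 3 fits under any alternative. Over all genes, calls in the WDR5 comparison of the lines numbered 26, and 0 to 166 under the alternatives, and in the WDR5 comparison of compound and DMSO 38, and 4 to 120. With the replicate block, N-MYC ranks under compound and DMSO again gave 0 calls, with 117 genes at an unadjusted p under 0.05. With centred log2 folds, 8 genes were called for N-MYC between the lines. Depth is unknown, so weak peaks absent from short lists cannot be told from absent binding.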
